A study of Mus musculus with 6 samples.

Results

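Cholesterol synthesis and transport were described through 33 genes, chosen by name from the 55487 genes in the counted table. Of these, 20 encode enzymes that build cholesterol from acetyl-CoA units, and 5 control the pathway. Another 4 act in transport and storage inside the cell, and 4 in efflux or in the control of efflux and uptake. All 33 names were found, each as a single gene, and all 33 passed the filter on low counts, which 13794 genes passed in all. The cells were MZ (marginal zone) B cells, which sit in the spleen and meet blood-borne antigens, enriched by removal of other cells and then sorted by flow cytometry from mice aged 14 weeks. RNA was sequenced in 3 libraries from CD55KO mice, which lack the complement regulator CD55, and in 3 libraries from WT C57BL/6 mice. The labels do not say which knockout allele or background strain the CD55KO mice had, or whether each library is its own mouse. P-values therefore measure library-to-library spread, part of which may be technical.

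Cells make cholesterol in a long chain of reactions in the cytosol and the endoplasmic reticulum (ER). Mevalonate is turned into isoprenoids, isoprenoids into squalene, squalene into lanosterol, and lanosterol into cholesterol. The chain is controlled by SREBP transcription factors, which SCAP carries out of the ER when sterols are scarce and which INSIG proteins hold back when sterols are plentiful. When sterols accumulate, liver X receptors (LXR) raise the efflux pumps ABCA1 and ABCG1 and lower sterol uptake. Lymphocytes use the pathway for new membranes and for lipid anchors on signalling proteins.

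SREBP factors often act beside the factor NF-Y, which binds CCAAT boxes, so the stretches before the start sites were searched for letters of both. RefSeq windows (GRCm38.p6) were available for 27 of the 33 genes, and each covers 250 bases before and 50 bases after a start. The letters CCAAT, on either strand, occurred in 24 of the 35 windows of these genes (68.6%) and in 37.4% of all 32851 windows, or 38.6% of the windows of genes tested here. They were found for 23 of the 27 genes. A core of the sterol regulatory element, TCACNCCAC on either strand, occurred in 1 of the 35 windows (2.86%), that of Hmgcs1, and in 1.24% of all windows. No match of one motif overlaps a match of the other in the sequences printed. These matches describe letters only. The 250 bases before the start are shown for Hmgcs1, the gene with the sterol element, and for the 3 genes with the smallest p-values between the genotypes. Capitals mark the CCAAT box, read on either strand, and the sterol element.
Hmgcs1, chr13:119690101-119690350, plus strand: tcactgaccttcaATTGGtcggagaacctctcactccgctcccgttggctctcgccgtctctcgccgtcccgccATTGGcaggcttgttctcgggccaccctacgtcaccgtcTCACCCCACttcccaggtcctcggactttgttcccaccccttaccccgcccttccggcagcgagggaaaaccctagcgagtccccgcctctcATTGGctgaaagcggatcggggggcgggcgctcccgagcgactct
Lss, chr10:76531355-76531604, plus strand: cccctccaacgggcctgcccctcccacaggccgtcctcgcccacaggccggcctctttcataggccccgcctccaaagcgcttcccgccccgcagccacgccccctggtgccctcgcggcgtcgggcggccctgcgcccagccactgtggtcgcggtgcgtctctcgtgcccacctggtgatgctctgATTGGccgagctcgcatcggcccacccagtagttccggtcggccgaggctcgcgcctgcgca
Cyp51, chr5:4104698-4104947, minus strand: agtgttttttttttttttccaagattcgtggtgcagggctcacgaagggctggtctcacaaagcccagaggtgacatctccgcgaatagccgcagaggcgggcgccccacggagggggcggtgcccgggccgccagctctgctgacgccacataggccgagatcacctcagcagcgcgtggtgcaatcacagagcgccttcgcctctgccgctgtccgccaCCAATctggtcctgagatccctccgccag
Soat1, chr1:156474329-156474578, minus strand: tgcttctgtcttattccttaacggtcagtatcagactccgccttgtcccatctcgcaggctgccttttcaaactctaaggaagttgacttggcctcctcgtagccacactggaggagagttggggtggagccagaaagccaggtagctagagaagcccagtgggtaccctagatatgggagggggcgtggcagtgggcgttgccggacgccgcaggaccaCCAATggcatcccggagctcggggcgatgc
The Hmgcs1 stretch held 3 CCAAT boxes and 1 sterol element, and each of the other stretches held 1 CCAAT box and no sterol element.

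Library totals lay between 20056064 counts, in WT replicate 1, and 30784031 counts. Cd55 had 7.53 ± 1.36 CPM (counts scaled by library total and TMM factor) in CD55KO against 118 ± 7.69 CPM in WT (SD, n = 3 each). The pan-B genes Cd79a, Cd79b, Ms4a1, Pax5 and Cd22 and the MZ genes Cr2, Cd1d1, Cd9, Dtx1 and Notch2 were present in every library, with Cr2 between 1032 and 1171 CPM. WT replicate 1 lay far from the rest in a principal component analysis and had the highest sum over 21 cell cycle genes. That sum was 554 to 621 CPM in CD55KO, against 914 CPM in WT replicate 1 and 603 and 633 CPM in the other WT libraries. All 21 cell cycle genes had a negative sign in CD55KO, and 0 passed the adjusted threshold. By edgeR, 7 of the 21 had an unadjusted p under 0.05, against 8.6% of all genes. Groups did not overlap for 3 of the 21, all lower in CD55KO, against 6.84% of all tested genes lower. Summed over 6 erythroid genes, libraries differed widely within each genotype, between 35.8 and 1989 CPM in CD55KO and between 105 and 4351 CPM in WT. Sums of some other lists did not overlap between the genotypes. The 7 plasma cell genes summed to 80.8 to 90.0 CPM in CD55KO, against 92.2 to 116 CPM in WT. Irf4 made up the largest part of these sums, with 49.1 to 64.2 CPM over all libraries, and overlapped between the genotypes. Of the 6 plasma cell genes tested, 5 had negative signs and 0 passed. By edgeR, 2 of the 6 had an unadjusted p under 0.05, against 8.6% of all genes. The 8 T and NK cell genes summed to 1.43 to 2.03 CPM in CD55KO, against 0.77 to 1.03 CPM in WT. The 5 neutrophil genes, 2 of them at 0 in all libraries, summed to 0.035 to 0.040 CPM in CD55KO, against 0.049 to 0.39 CPM in WT. The neutrophil sums of all CD55KO libraries and of WT replicate 1 lay below the level of 3 counts there (0.105 to 0.146 CPM). At such counts the lack of overlap cannot be read as a difference. The 7 germinal centre genes summed to 17.3 to 27.8 CPM in CD55KO, against 23.0 to 71.2 CPM in WT, with 6 negative signs and 1 gene, Gcsam, that fell (edgeR adjusted p = 0.034). The part of these lists in the results on cholesterol genes was not tested. In bulk RNA, fewer cells of a type and less RNA per cell cannot be told apart.

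No gene of cholesterol synthesis, control, transport or efflux passed the test between the genotypes. By edgeR's quasi-likelihood test with Benjamini-Hochberg adjustment over all 13794 genes, 0 of the 33 had an adjusted p under 0.05, where 0.399% of all genes were called (0.138% higher and 0.261% lower in CD55KO). The count was also 0 by DESeq2 and by limma-voom. An unadjusted p under 0.05 was found for 3 of the 33 (9.09%), a share close to the 8.6% of all genes, and all 3 were lower in CD55KO, in which direction 4.3% of all genes had such a p. In the higher direction 0 of the 33 had such a p, against 4.3% of all genes. The sign was positive for 17 genes and negative for 16. The median log2 fold change, CD55KO over WT, was 0.00062 for the 33 genes and 0.0015 for all genes tested.

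The 95% interval of the fold change lay wholly within 1.5-fold in either direction for 31 of the 33 genes (93.9%), where 62.6% of all tested genes had such an interval. It lay within 2-fold for 33 of 33, against 79.8% of all genes. The width of an interval depends on counts, and the shares over all genes were not matched for counts. The exceptions at 1.5-fold were Lss and Tm7sf2. The genes were well counted: apart from Tm7sf2, with as few as 39 counts in a library, none had fewer than 154 counts in any library. The standard deviation between libraries of 1 genotype, as a percentage of the mean, had a median over the 33 genes of 8.24% in CD55KO and 7.14% in WT.

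**Figure D1:**
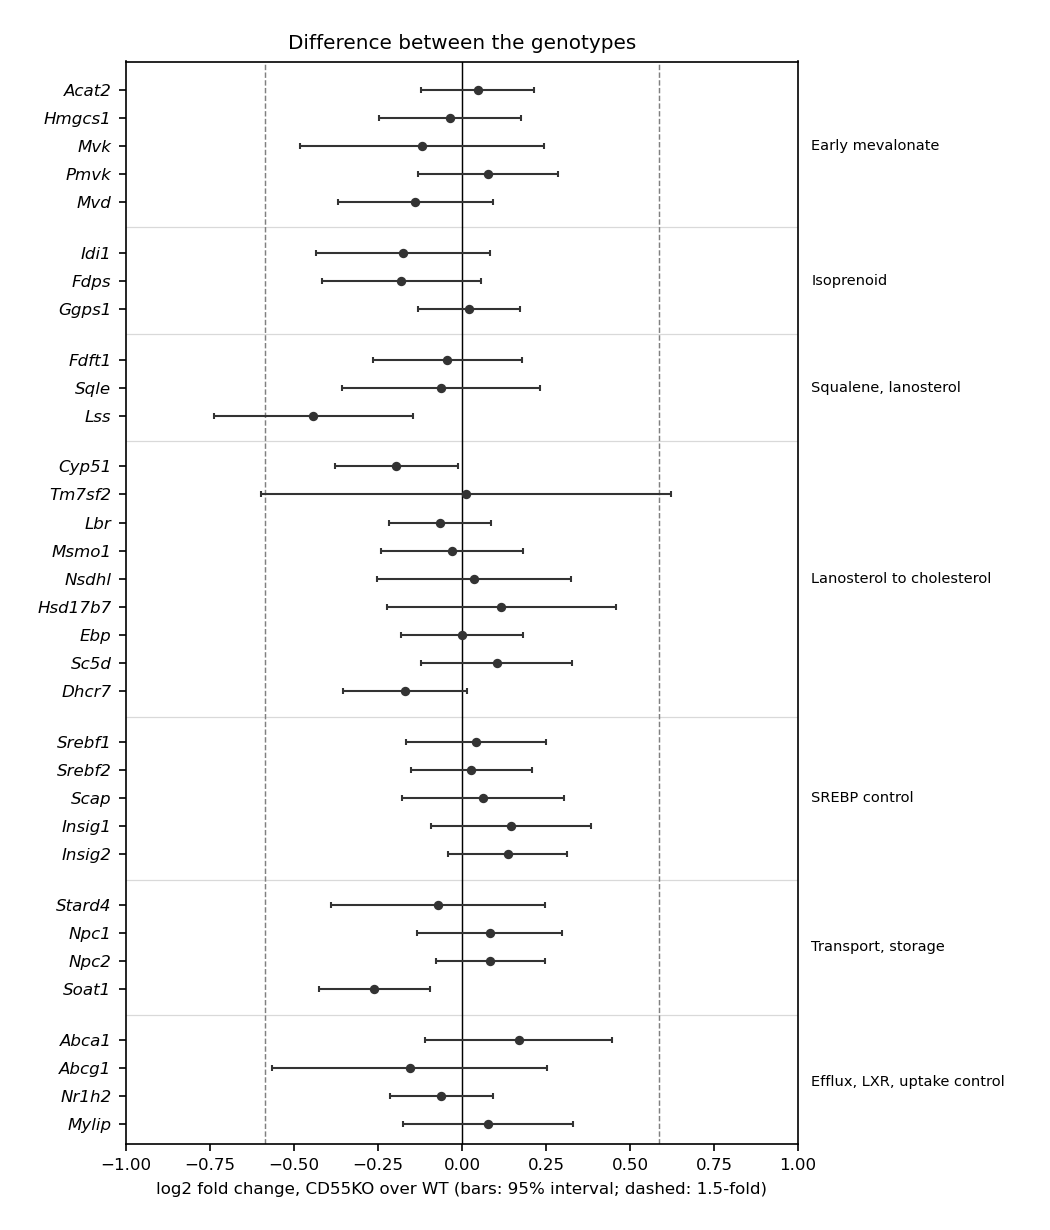
Log2 fold change of each gene, CD55KO over WT, ordered by step, with its 95% interval from edgeR's quasi-likelihood fit; dashed lines mark 1.5-fold in either direction. The intervals of Lss, Cyp51 and Soat1 lie wholly below 0, and those of Lss and Tm7sf2 reach past a dashed line.

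The 5 enzymes of the early mevalonate steps did not pass the test, and their sums overlapped between the genotypes. Together they had 128, 134 and 132 CPM in the CD55KO libraries, against 124, 136 and 134 CPM in the WT libraries, in replicate order. Mvd, which encodes the decarboxylase that ends this stretch, had the smallest p among them. It had 17.4, 19.7 and 18.002 CPM in CD55KO, against 18.4, 21.9 and 20.4 CPM in WT. The groups overlapped, and the log2 fold change was -0.14 ± 0.11 (SE; edgeR adjusted p = 0.798). Hmgcs1, whose enzyme makes HMG-CoA, had 24.6, 22.3 and 25.9 CPM in CD55KO, against 22.9, 26.1 and 25.4 CPM in WT. Its libraries intermingled fully, with a 95% interval of the log2 fold change between -0.25 and 0.18. Acat2, the cytosolic thiolase gene, averaged 50.9 ± 1.64 CPM in CD55KO, against 49.3 ± 2.40 CPM in WT (SD, n = 3 each). Pmvk, the phosphomevalonate kinase gene, averaged 28.3 ± 2.10 CPM in CD55KO, against 26.8 ± 2.09 CPM in WT. Mvk, the mevalonate kinase gene, was the least steady of the 5 across WT libraries, with 10.5, 9.14 and 9.07 CPM in CD55KO, against 7.48, 11.6 and 11.9 CPM in WT. Its low value was that of WT replicate 1. Acat3, a close relative of Acat2 that could share its reads, was counted at 2.63 to 4.55 CPM.

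The isoprenoid enzymes supply both the sterol branch and the lipid anchors of proteins. Idi1, which encodes isopentenyl diphosphate isomerase, had 15.4, 12.5 and 15.8 CPM in CD55KO, against 16.2, 15.97 and 17.2 CPM in WT. All CD55KO libraries were below all WT libraries, with CD55KO replicate 3 close to WT replicate 2, and the log2 fold change of -0.18 ± 0.12 (SE) did not pass (adjusted p = 0.754). Fdps, the farnesyl diphosphate synthase gene, had the smallest p of this step. It had 24.3, 28.4 and 24.7 CPM in CD55KO, against 25.1, 29.0 and 33.5 CPM in WT. The groups overlapped (log2 fold change -0.18 ± 0.11 SE, adjusted p = 0.720). Ggps1 makes geranylgeranyl diphosphate, the anchor of many small GTPases, and was among the steadiest genes, at 65.9 ± 0.99 CPM in CD55KO, against 65.0 ± 2.33 CPM in WT (SD, n = 3 each).

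In the squalene and lanosterol steps, Lss had the largest log2 fold change, by size, of the 33 genes. Lss encodes lanosterol synthase, which closes the sterol rings, and lies at chr10:76531588-76557138 (GRCm38). It had 11.8, 10.7 and 9.53 CPM in CD55KO, against 12.4, 16.3 and 14.6 CPM in WT. The groups did not overlap, though CD55KO replicate 1 and WT replicate 1 were close to each other. The log2 fold change was -0.44 ± 0.14 (SE), with a 95% interval between -0.74 and -0.15, an unadjusted p of 0.0060 and an adjusted p of 0.297. Adjusted p-values of Lss ranged between 0.129 and 0.656 over the 14 other settings, and the unadjusted p was under 0.05 in all 14. Sqle, which encodes squalene epoxidase, a rate-limiting enzyme of the sterol branch, had 14.1, 10.5 and 11.0 CPM in CD55KO, against 12.1, 12.5 and 12.5 CPM in WT. Its CD55KO libraries lay on both sides of the WT libraries (log2 fold change -0.06 ± 0.14 SE, adjusted p = 0.954). Fdft1, the squalene synthase gene, averaged 20.99 ± 1.37 CPM in CD55KO, against 21.6 ± 1.88 CPM in WT (SD, n = 3 each). Of its exon bases, 18.3% are shared with Ctsb on the opposite strand, a gene at 584 CPM, and reads were made without strand marks, so the value of Fdft1 is uncertain.

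Of the 9 genes that turn lanosterol into cholesterol, Cyp51 had the smallest p. Cyp51 encodes the demethylase that acts on lanosterol itself, the step after Lss. It had 31.7, 32.4 and 34.8 CPM in CD55KO, against 37.0, 37.0 and 39.3 CPM in WT. The groups did not overlap, and the log2 fold change was -0.20 ± 0.09 (SE; unadjusted p = 0.038, adjusted p = 0.545). Adjusted p-values ranged between 0.487 and 0.790 over the 14 other settings, and the unadjusted p was under 0.05 in 9 of them. Of the exon bases of Cyp51, 3.76% are shared with Akap9 on the opposite strand, at 76.2 CPM. Dhcr7, whose enzyme makes the last reduction to cholesterol, had 45.0, 43.7 and 47.1 CPM in CD55KO, against 45.9, 51.7 and 55.1 CPM in WT. WT replicate 1 lay among the CD55KO libraries (log2 fold change -0.17 ± 0.09 SE, adjusted p = 0.625). For the remaining 7 genes of this step, edgeR gave log2 fold changes between -0.07, for Lbr, and 0.12, for Hsd17b7, which encodes a ketosteroid reductase. Hsd17b7 had 13.6, 11.7 and 9.07 CPM in CD55KO, against 9.23, 10.5 and 11.9 CPM in WT, with full overlap. Ebp, the sterol isomerase gene, averaged 65.9 ± 4.46 CPM in CD55KO, against 65.8 ± 6.29 CPM in WT. Msmo1 and Nsdhl, which encode enzymes that remove methyl groups from the sterol ring, averaged 21.5 ± 1.59 and 14.6 ± 2.16 CPM in CD55KO, against 21.9 ± 0.65 and 14.2 ± 1.498 CPM in WT. Sc5d, a desaturase gene, had 41.6 ± 4.49 CPM in CD55KO, against 38.7 ± 4.91 CPM in WT (SD, n = 3 each).

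Lbr and Tm7sf2 encode proteins that carry out the same sterol reduction. Lbr also serves as the lamin B receptor of the nuclear envelope. Per kb of exon, Lbr was at 33.9 ± 0.49 CPM per kb in CD55KO and 35.5 ± 1.43 CPM per kb in WT. Tm7sf2 was at 0.51 ± 0.12 CPM per kb in CD55KO and 0.50 ± 0.13 CPM per kb in WT (SD, n = 3 each). Within a library the level of Lbr was 55.7 to 88.8 times that of Tm7sf2 in CD55KO and 54.7 to 86.1 times in WT. Of the exon bases of Tm7sf2, 12.1% are shared with Vps51 on the same strand, a gene at 33.9 CPM. The level of Tm7sf2 and its ratio to Lbr are therefore uncertain.

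**Figure D2:**
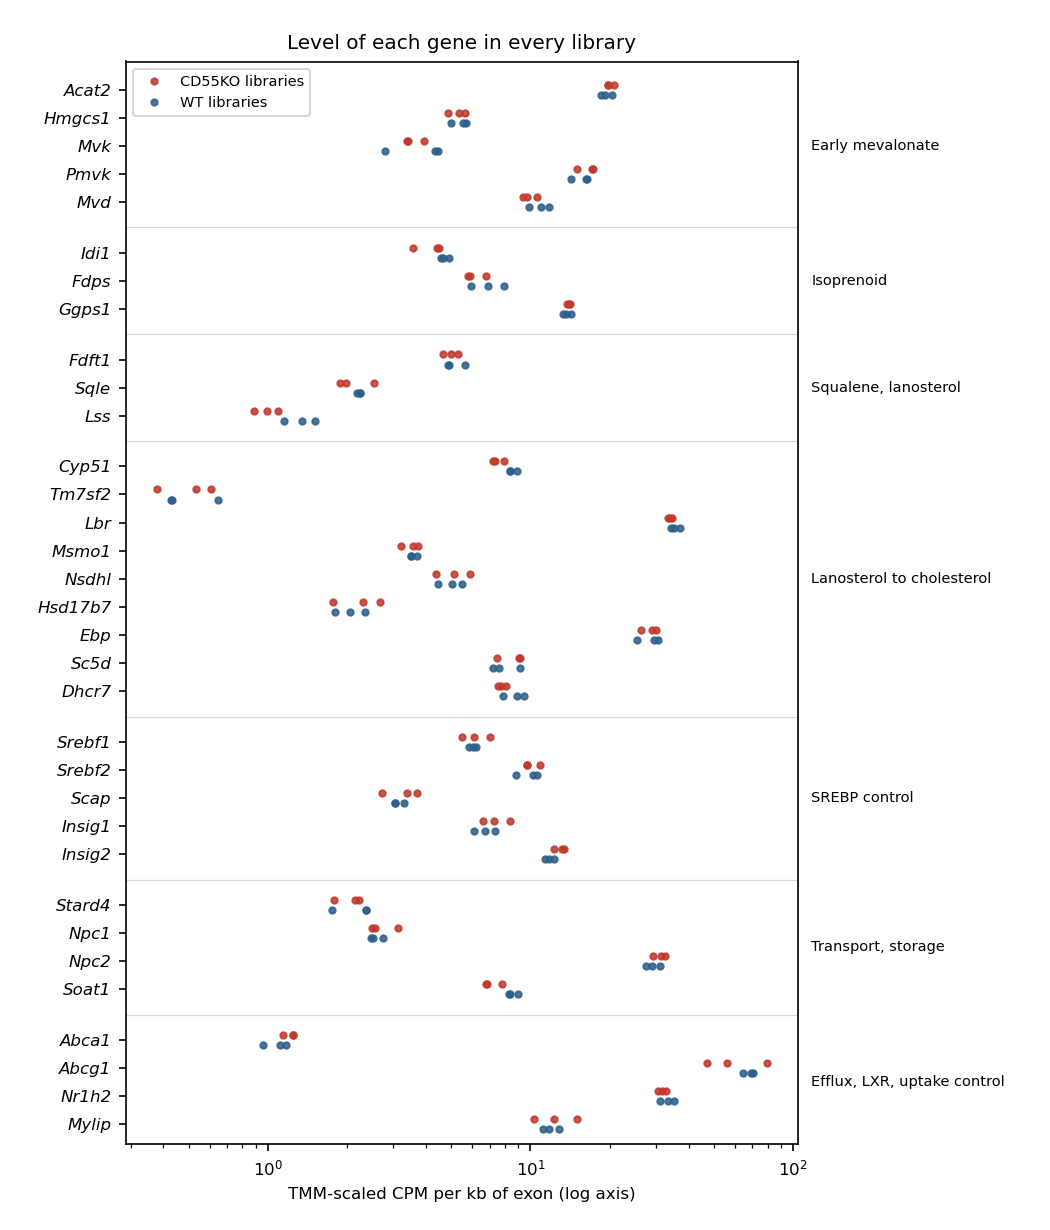
TMM-scaled CPM per kb of exon, on a log axis, for each gene (rows, by step), with 1 point for each of the 3 CD55KO libraries (upper, red) and the 3 WT libraries (lower, blue). Levels span a wide range between genes, from Tm7sf2 to Abcg1, while the points of the genotypes lie close together within most genes.

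Summed over the 20 synthesis enzymes, the level was 679, 669 and 687 CPM in the CD55KO libraries, against 680, 698 and 727 CPM in the WT libraries. WT replicate 1 lay within the CD55KO range. Its cell cycle sum was the highest of the 6 libraries, while its enzyme sum was the lowest of the WT libraries. The part of the cell cycle and erythroid levels in these values was not tested. Without WT replicate 1, 5 of the 33 genes had an unadjusted p under 0.05 instead of 3 (15.2%, against 7.69% of all genes in that fit), with Fdps (log2 fold change -0.28) and Dhcr7 (-0.24) added and 0 past the adjusted threshold. All 5 were lower in CD55KO, a direction in which 3.57% of all genes had such a p. No other single library raised the count when left out: it was then 2 or 3 of the 33.

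**Figure D3:**
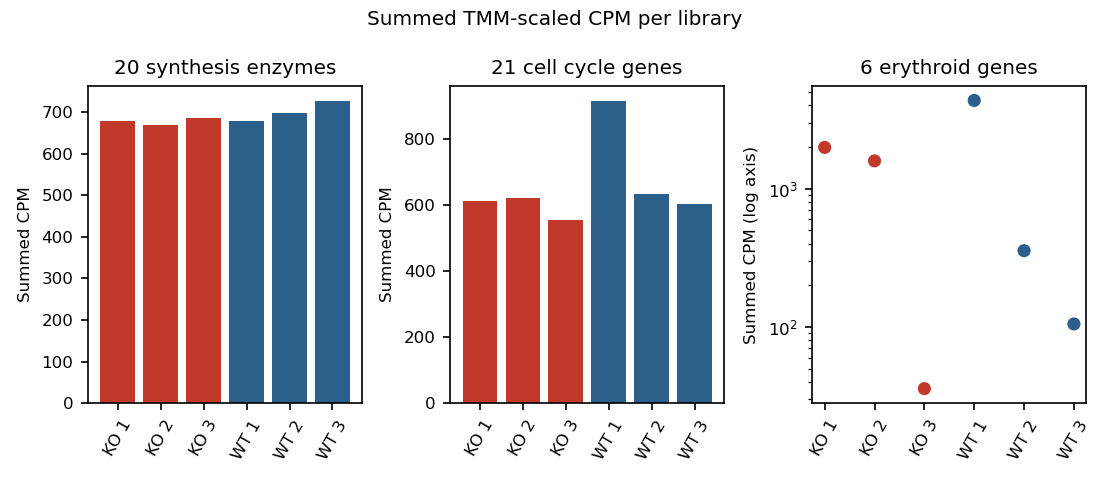
Summed TMM-scaled CPM per library for the 20 synthesis enzymes, 21 cell cycle genes (both from 0) and 6 erythroid genes (log axis), CD55KO in red and WT in blue. The enzyme sums lie between 669 and 727 CPM in all libraries, while WT replicate 1 has the highest cell cycle and erythroid sums.

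The 5 genes of SREBP control had positive log2 fold changes, from 0.03 to 0.15, and none passed. Insig2 had the smallest p. It encodes an ER protein that holds back SCAP. It had 46.6, 42.6 and 45.9 CPM in CD55KO, against 39.5, 40.8 and 42.6 CPM in WT. CD55KO replicate 2 and WT replicate 3 were level, and the log2 fold change was 0.14 ± 0.08 (SE; adjusted p = 0.715). Insig2 lies on chromosome 1, as Cd55 does, 9.11 Mb from it. Soat1 (26.0 Mb), Hsd17b7 (39.5 Mb) and Lbr (51.4 Mb) also lie on that chromosome. Insig1, the other INSIG gene and itself an SREBP target, had 25.8, 20.5 and 22.6 CPM in CD55KO, against 20.8, 18.8 and 22.6 CPM in WT. The groups overlapped, and its fitted log2 fold change was 0.15 ± 0.11 (SE; adjusted p = 0.793). Srebf2, whose factor chiefly drives cholesterol genes, averaged 72.4 ± 4.76 CPM in CD55KO, against 71.0 ± 6.89 CPM in WT (SD, n = 3 each). Srebf1, whose factor chiefly drives fatty acid genes, averaged 34.9 ± 4.38 CPM in CD55KO, against 33.9 ± 0.91 CPM in WT. Scap averaged 24.3 ± 3.73 CPM in CD55KO, against 23.3 ± 1.05 CPM in WT. Without CD55KO replicate 3, the signs of Srebf1, Srebf2 and Scap turned negative (-0.06, -0.03 and -0.04), as did that of Srebf2 without WT replicate 1 (-0.05). Per kb of exon, Srebf2 stood at 1.55 to 1.78 times Srebf1 in CD55KO libraries and 1.5015 to 1.76 times in WT libraries. Insig2 stood at 1.61 to 1.85 times Insig1 in CD55KO libraries and 1.68 to 1.93 times in WT libraries.

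Soat1 had the smallest p of all 33 genes. It encodes the enzyme that esterifies cholesterol for storage in lipid droplets, and lies at chr1:156424525-156474331 (GRCm38). It had 76.5, 66.6 and 66.4 CPM in CD55KO, against 81.3, 87.6 and 82.1 CPM in WT. The groups did not overlap, and CD55KO replicate 1 was nearest to WT. The log2 fold change was -0.26 ± 0.08 (SE), with a 95% interval between -0.43 and -0.10, an unadjusted p of 0.0041 and an adjusted p of 0.258. Adjusted p-values ranged between 0.0878, without CD55KO replicate 1, and 0.597, without CD55KO replicate 2, over the 14 other settings. The unadjusted p was under 0.05 in all 14.

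Groups that did not overlap were found for Soat1, Lss, Cyp51 and Idi1, all lower in CD55KO. That is 4 of 33 genes lower (12.1%) and 0 higher, against 6.84% of all tested genes lower and 7.24% higher (14.1% in either direction).

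**Figure D4:**
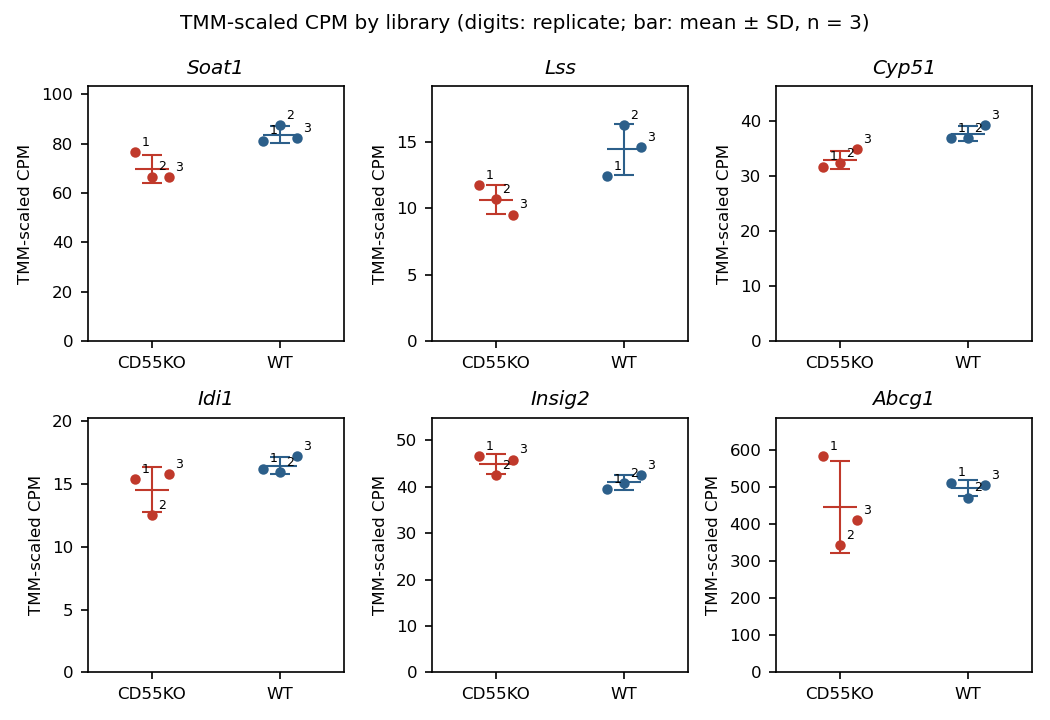
TMM-scaled CPM of 6 genes by library (points, with the replicate number) with the mean and SD over 3 libraries, CD55KO left and WT right, each axis from 0. Soat1, Lss, Cyp51 and Idi1 show no overlap between genotypes, Insig2 touches, and Abcg1 in CD55KO spreads above and below WT.

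Other genes of sterol movement overlapped between the genotypes. Npc1 and Npc2 encode proteins that together export cholesterol from lysosomes. Npc1 averaged 30.8 ± 3.88 CPM in CD55KO, against 29.1 ± 1.60 CPM in WT, and Npc2 averaged 169 ± 9.26 CPM in CD55KO, against 159 ± 9.49 CPM in WT (SD, n = 3 each). Stard4, which encodes a sterol carrier of the cytosol, had 11.5 ± 1.32 CPM in CD55KO, against 12.1 ± 1.96 CPM in WT.

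Abcg1, which encodes a pump that moves cholesterol out of the cell, had the highest level per kb of exon of the 33 genes, at 61.1 ± 16.9 CPM per kb in CD55KO and 68.0 ± 2.97 CPM per kb in WT. It had 583, 344 and 410 CPM in CD55KO, against 512, 472 and 505 CPM in WT. The CD55KO libraries lay on both sides of the WT libraries, with replicate 1 above and replicates 2 and 3 below. Its spread in CD55KO, 27.7% of the mean, was the widest of the 33 genes, against 4.37% in WT. The log2 fold change was -0.16 ± 0.18 (SE; adjusted p = 0.885). Without CD55KO replicate 1 it was -0.40 (unadjusted p = 0.00049, adjusted p = 0.0878), and without CD55KO replicate 2 it was -0.0016. Abca1, the other efflux pump, had the smallest p of this step, with 12.9, 11.8 and 12.9 CPM in CD55KO, against 12.1, 9.93 and 11.5 CPM in WT. WT replicate 1 lay within the CD55KO range (log2 fold change 0.17 ± 0.13 SE, adjusted p = 0.797). Per kb of exon, Abcg1 stood at 41.3 to 64.3 times Abca1 in CD55KO libraries and 60.1 to 67.4 times in WT libraries.

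Nr1h2, which encodes the LXR-beta receptor, averaged 106 ± 3.53 CPM in CD55KO, against 111 ± 6.72 CPM in WT (SD, n = 3 each). Mylip, an LXR target whose ubiquitin ligase removes lipoprotein receptors, had 48.5, 33.2 and 39.9 CPM in CD55KO, against 41.4, 35.9 and 38.2 CPM in WT. Like Abcg1, Mylip was highest in CD55KO replicate 1 and lowest in CD55KO replicate 2. Its log2 fold change was 0.08 ± 0.12 (SE; adjusted p = 0.917).

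Beyond these 33 genes, 66 other genes of lipid metabolism and sterol movement were looked up in 5 lists, and 59 were tested. By edgeR 0 of the 59 passed, as by DESeq2 and by limma-voom, while edgeR gave 2 of them an unadjusted p under 0.05, Acsl3 and Fnta (3.39%, against 8.6% of all genes). The median log2 fold change of the 59 was -0.04, with 22 positive and 37 negative signs, against 6955 positive and 6839 negative over all genes. Groups did not overlap for 3 of the 59 (5.08%, against 14.1% of all genes): Acsl3 and Fasn were lower in CD55KO and Gramd1b was higher.

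In fatty acid synthesis 0 of 14 tested genes passed. Acsl3, which encodes a long-chain acyl-CoA synthetase of lipid droplets and the ER, had 2.42, 3.52 and 3.26 CPM in CD55KO, against 5.29, 4.76 and 4.33 CPM in WT. The groups did not overlap, and the log2 fold change was -0.64 ± 0.22 (SE; unadjusted p = 0.0100, adjusted p = 0.344). Fasn, the fatty acid synthase gene, had 17.6, 18.3 and 19.8 CPM in CD55KO, against 20.01, 21.5 and 20.6 CPM in WT. CD55KO replicate 3 and WT replicate 1 were close (log2 fold change -0.16 ± 0.10 SE, adjusted p = 0.733). Scd2, a desaturase gene, had 60.2 ± 6.84 CPM in CD55KO, against 67.8 ± 6.45 CPM in WT (SD, n = 3 each; edgeR adjusted p = 0.653). Among 16 genes that use isoprenoids 0 passed. Fnta, the shared subunit of the enzymes that attach farnesyl and geranylgeranyl anchors, had 14.0, 12.8 and 14.4 CPM in CD55KO, against 19.0, 19.4 and 13.3 CPM in WT. WT replicate 3 lay within the CD55KO range (log2 fold change -0.32 ± 0.14 SE, adjusted p = 0.539). Pdss1, a gene of the coenzyme Q side chain, had a log2 fold change of 0.29 ± 0.20 (SE; adjusted p = 0.759).

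Of 10 genes that process SREBP or degrade sterol-regulated proteins 0 passed, with log2 fold changes between -0.13 and 0.14. Rnf145, a ubiquitin ligase gene, had the smallest p, with 79.5, 62.6 and 74.6 CPM in CD55KO, against 74.1, 83.7 and 78.9 CPM in WT. The groups overlapped (log2 fold change -0.13 ± 0.09 SE, adjusted p = 0.754). Marchf6, also a ubiquitin ligase gene, had an adjusted p of 0.802 by edgeR. Of 17 tested genes of other sterol transport 0 passed. Gramd1b, which encodes a carrier of sterol from the plasma membrane to the ER, had 6.67, 6.23 and 5.43 CPM in CD55KO, against 4.18, 4.66 and 5.19 CPM in WT. The groups did not overlap (log2 fold change 0.38 ± 0.18 SE, adjusted p = 0.589). Abca2, a transporter gene of lysosomes, had a log2 fold change of 0.25 ± 0.14 (SE; adjusted p = 0.675). Of 5 genes of oxysterol metabolism 2 were tested, Cyp27a1 (16.6 ± 2.14 CPM in CD55KO, against 16.3 ± 2.69 CPM in WT) and Hsd3b7, and neither passed. Hsd3b7, a gene of bile acid synthesis, had 1.36, 0.28 and 0.35 CPM in CD55KO, against 1.65, 0.89 and 0.82 CPM in WT. CD55KO replicate 1 lay within the WT range (log2 fold change -0.73 ± 0.55 SE, adjusted p = 0.787). Ch25h, Cyp7b1 and Cyp46a1 had 0 counts in all 6 libraries, which allows up to 0.0958 to 0.146 CPM depending on the library, for counting error only.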

How the data were processed

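Bulk RNA-seq libraries (RNeasy micro kit and SMARTer Ultra Low RNA kit, per the labels' protocols) were compared from 3 CD55KO and 3 WT samples of MZ B cells. The authors deposited estimated counts per gene, with no scaling. DRAGEN, edgeR and limma are listed in the submitters' processing notes, and the sources used here give no version, role, genome build or annotation. Of the 55774 rows, 287 repeated a gene ID with identical values and were removed, and counts were rounded. Exon lengths (the union of all annotated exons, retained introns included) and positions came from GENCODE M21 (GRCm38) by gene ID, which held 99.5% of IDs and all 33 genes.

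Genotype was the only term in edgeR 4.0.16 (R 4.3.3) with filterByExpr (minimum count 10), TMM and the robust quasi-likelihood test, at an adjusted p of 0.05. Standard errors and intervals came from the fitted fold change and its F statistic. The test was checked on simulated data. CPM are TMM-scaled. DESeq2 1.42.0 and limma 3.58.1 (voom) were alternatives, with other scalings, filters and fits and each library left out. The 33 genes and all lists were chosen with earlier results of these data known. Each gene was named, with full values for those with an unadjusted p under 0.05 and for the smallest p of each step and list. Idi1, Hmgcs1, Sqle, Mvk, Hsd17b7, Dhcr7, Insig1, Abcg1, Mylip and Fasn were given by library after their values were seen. Exons of 7 of the genes (Cyp51, Fdft1, Ggps1, Lbr, Npc1, Srebf1 and Tm7sf2) overlap a gene above 1 CPM, so that their counts are uncertain.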

Additional observations from a re-analysis of the deposited data

How the results depend on the processing

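The counts of called genes among the 33, and among the 59 related genes, were 0 under all 14 alternatives. The number of all genes called was 55, against 137 by DESeq2 and 232 with no filter, and 37 to 53 without single libraries. The cause was not tested. The median log2 fold change of the 33 genes stayed between -0.043 and 0.026. No scaling moved the median of all genes by over 0.1. Signs turned for 15 of the 33 genes, none of them called, in 30 of 462 values. Ebp turned to -0.0046 with DESeq2 size factors, -0.0076 with library totals, -0.0046 by DESeq2, -0.0019 by limma-voom and -9.2e-05 with no filter. Without single libraries the log2 fold changes ranged from -0.087 to 0.019 for Hmgcs1, -0.0011 to 0.050 for Ggps1, -0.090 to 0.030 for Fdft1, -0.20 to 0.016 for Sqle, -0.14 to 0.24 for Tm7sf2, -0.075 to 0.025 for Msmo1, -0.077 to 0.14 for Nsdhl, -0.024 to 0.26 for Hsd17b7, -0.073 to 0.055 for Ebp, -0.060 to 0.12 for Srebf1, -0.047 to 0.081 for Srebf2, -0.042 to 0.18 for Scap, -0.20 to 0.017 for Stard4, -0.029 to 0.14 for Npc1 and -0.070 to 0.20 for Mylip. Deviations of same-numbered libraries correlated at 0.075, -0.12 and 0.17, and those of differently numbered libraries at -0.23 to 0.17. With 3 libraries per genotype, these values cannot tell whether the numbers pair the samples. With the replicate number as a block 64 genes were called, 0 of them among the 33, and 2 of the 33 had an unadjusted p under 0.05. Tm7sf2, with 39 to 80 counts per library, was the gene most limited by depth.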
